A study of Homo sapiens with 28 samples.

Results

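SK-N-MC cells in which CHD4 was silenced for 48 h by either of a pair of different short hairpin RNAs, shCHD4#1 or shCHD4#2, were compared with each other. The comparison used 6 of the 28 libraries of the series, 3 for each hairpin, chosen by the hairpin and the time in the sample titles and set side by side by their replicate number. SK-N-MC is an established line of Ewing sarcoma, a tumour driven by the fusion transcription factor EWS-FLI1. The series followed silencing of CHD4 or of EWS-FLI1 at 24 and 48 h. All lines carried a doxycycline-inducible hairpin, and all cultures received 100 ng/ml doxycycline, the controls too. The groups used here were shCHD4#1 at 48 h (3 libraries), shCHD4#2 at 48 h (3 libraries), the same hairpins at 24 h (3 libraries each), shFLI1 at 48 h (3 libraries) and, as the control, a scrambled hairpin, shScramble, at 48 h (5 libraries). Each hairpin was carried by a separate cell population, so the effect of a hairpin and a difference between the lines that carry it cannot be told apart. Uninduced cells were not analysed here.

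CHD4 is the ATPase of NuRD, the nucleosome remodelling and deacetylase complex, which joins chromatin remodelling to histone deacetylation and mostly keeps target promoters and enhancers less accessible. A hairpin RNA is cut by Dicer into a short duplex, and 1 strand of it guides Argonaute proteins to the matching transcript. Besides the intended target, such a guide strand can act on other transcripts that match its seed, and expression of a hairpin occupies the small RNA machinery. For this reason knockdown studies use more than 1 hairpin, and a direct comparison of the hairpins shows which transcripts differed although the same gene was targeted. The sources used here do not give the hairpin sequences.

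Levels are read counts normalised by the authors' size factors, so they can be compared between libraries and not between genes of different length. Differences are on the log2(value + 1) scale, shCHD4#1 minus shCHD4#2, and a positive value means higher with shCHD4#1. A gene was called when limma's test of the mean difference over the 3 pairs, from a fit of the 12 hairpin libraries of 24 and 48 h, gave a Benjamini-Hochberg adjusted p below 0.05 over all 21025 genes tested. The 6 libraries held 49530599 to 59691401 reads, of which mitochondrial ribosomal RNA took 16.3 to 19.5%. Reads on processed pseudogenes took 0.313 to 0.388% in replicates 1 and 2 and 0.223 to 0.272% in replicate 3. This share was thus lower in replicate 3 with either hairpin, and each pair joined libraries of the same range. The cause of this was not tested. In shScramble at 48 h this share was 0.317 and 0.372% in replicates 1 and 2 and 0.244 to 0.250% in replicates 3 to 5. Ranges, medians and means of shScramble thus join libraries with the higher and with the lower share. All 10 Ewing sarcoma markers, among them CD99, NKX2-2 and NR0B1, were present at a mean of at least 10 in the 6 libraries. At that level there were also 3 leukocyte markers of 10 listed (PTPRC, CSF1R and CD68), 4 epithelial, 4 endothelial and 6 fibroblast markers, and no matched marker was at 0 in all 6 libraries.

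CHD4 (chr12:6570082-6614524, minus strand, GRCh38) was low with both hairpins. It was at 2959, 3126 and 3482 in the shCHD4#1 libraries and at 2722, 2801 and 2727 in the shCHD4#2 libraries, against 9343 to 13100 in the 5 shScramble libraries, with a median of 12105. The hairpin libraries did not overlap with the control, and the shCHD4#1 values all lay above the shCHD4#2 values. The mean was 27.5% of shScramble with shCHD4#1 and 23.7% of shScramble with shCHD4#2. CHD4 was thus 0.21 higher with shCHD4#1 than with shCHD4#2 on the log2 scale (SE 0.06, 95% interval 0.07 to 0.35, n = 3 pairs), with a limma adjusted p of 0.0169. This call was lost without the pairing by replicate number (adjusted p = 0.164) and without replicate 3 (adjusted p = 0.148). At 24 h the difference was -0.04 (limma adjusted p = 0.691). The fall of CHD4 relative to shScramble was 1.86 with shCHD4#1 and 2.07 with shCHD4#2 on the log2 scale. A genotype label of the 48 h shScramble samples names a CHD4 knockdown, whereas titles and treatment give the scrambled hairpin, and CHD4 in these 5 libraries was well above both knockdown groups.

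At this near-equal CHD4 level, 12037 of the 21025 genes differed between the hairpins at 48 h, which is 57.3%. With shCHD4#1, 6024 genes were higher (28.7%) and 6013 were lower (28.6%). Most differences were small. The median size over all genes was 0.40 on the log2 scale, and 1749 of the higher and 1396 of the lower genes differed at least 2-fold. Without the pairing by replicate number, 4046 genes were higher and 3917 were lower. The median of all differences was -0.0012, a centre that scaling by size factors sets near 0. Across pairs the spread was unequal, as the standard deviation of the difference over genes was 0.64 in pair 1, 1.01 in pair 2 and 0.86 in pair 3.

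**Figure D1:**
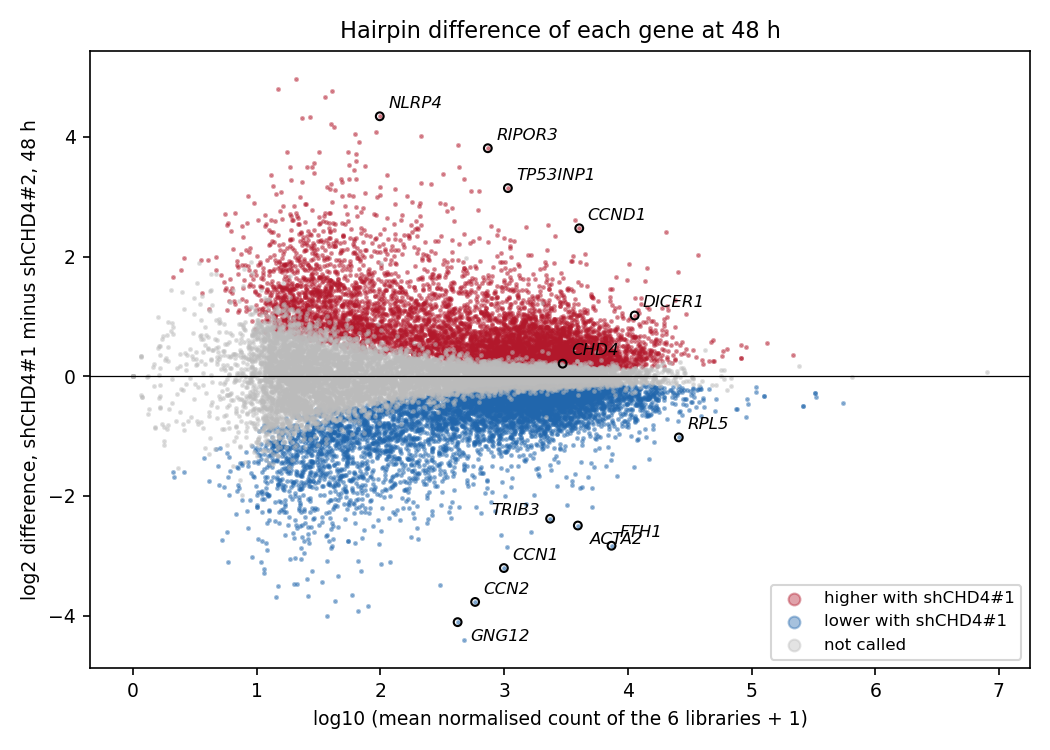
Difference between the hairpins at 48 h (y axis, log2, shCHD4#1 minus shCHD4#2) against the mean level over the 6 libraries (x axis, log10 of the normalised count + 1) for the 21025 genes tested, coloured by call. The 6024 higher genes lie above 0 and the 6013 lower genes below it, and FTH1 and CCND1 stand far from 0 among the abundant genes.

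The gene that differed with the smallest error among the largest falls was FTH1, which encodes the heavy chain of ferritin, the iron storage protein (chr11:61959718-61967660, minus strand). FTH1 stood at 2060, 1567 and 1820 with shCHD4#1 and at 14914, 11732 and 12166 with shCHD4#2, against 10152 to 14710 with shScramble (median 13360). The shCHD4#1 libraries lay far below all others, while 2 of the shCHD4#2 libraries lay within the control range and 1 lay just above it. The difference between the hairpins was -2.83 (SE 0.05, n = 3 pairs, limma adjusted p = 2.66e-08), and FTH1 was at 14.2% of shScramble with shCHD4#1 and at 102% with shCHD4#2. The difference was already -2.25 at 24 h (limma adjusted p = 2.10e-07). Of 6 FTH1 pseudogenes tested, 5 were lower with shCHD4#1, beside 28.6% of all genes. Among them was FTH1P10 with -3.26, and FTH1P3 had a difference of -0.02 (limma adjusted p = 0.948). Pseudogene and parent reads may be shared, since the treatment of reads with several matches is not given. FTL, the ferritin light chain, chosen after its values were seen, averaged 14846 with shCHD4#1 and 18029 with shCHD4#2, a difference of -0.28 (limma adjusted p = 0.0117).

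**Figure D2:**
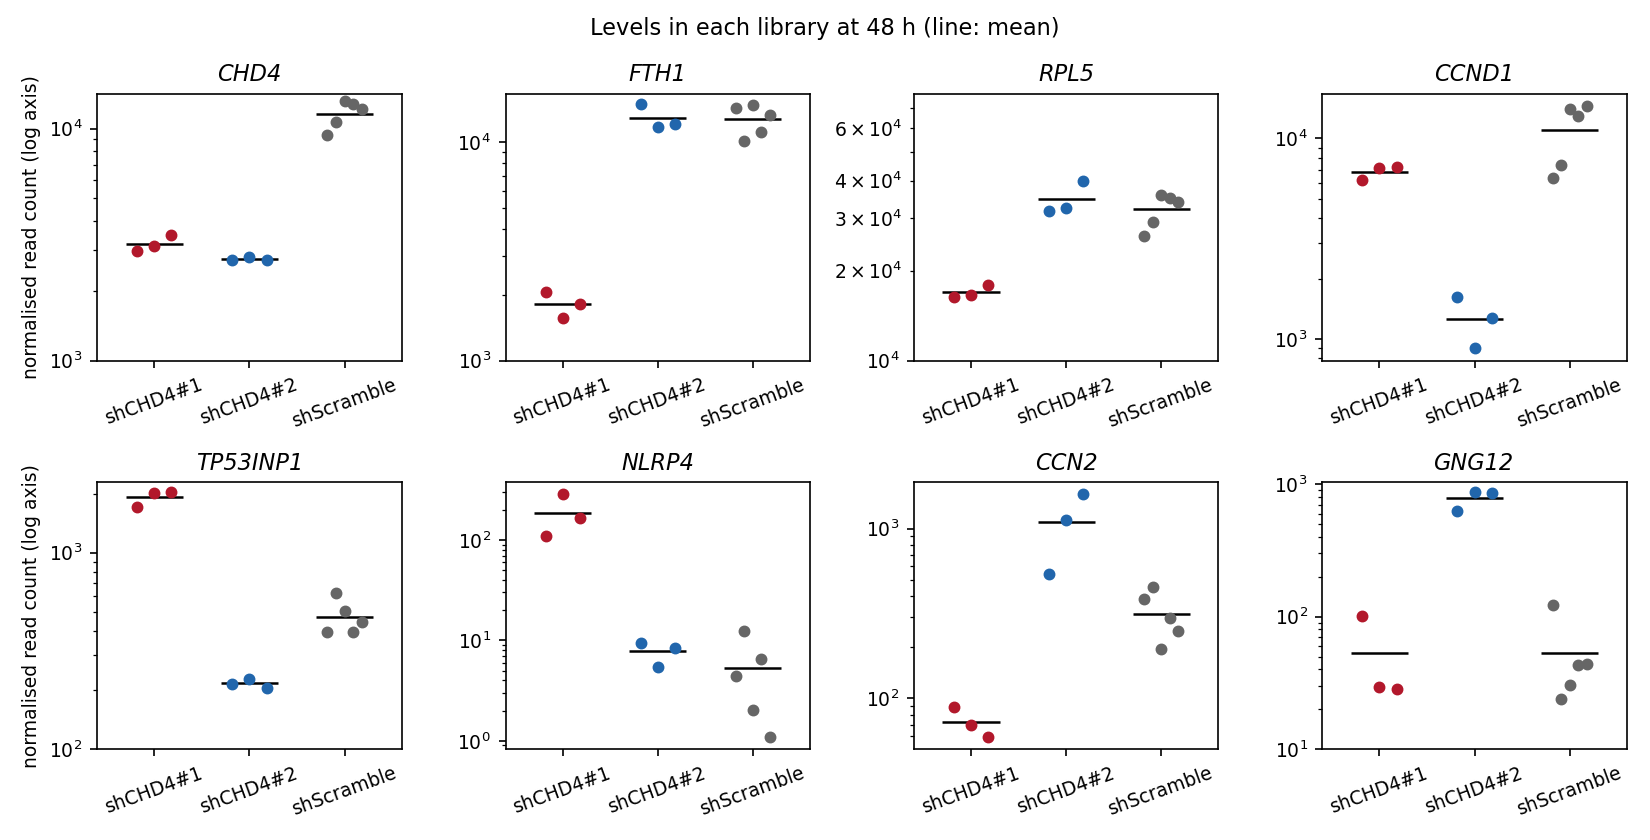
Normalised read count (y axis, log scale) of 8 genes in each library at 48 h, for shCHD4#1, shCHD4#2 and shScramble; points are libraries and lines are means. CHD4 is low with both hairpins, FTH1 and RPL5 are low with shCHD4#1 alone of the 3 groups shown, CCND1 is lowest with shCHD4#2, and CCN2 and GNG12 are highest with shCHD4#2.

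The 12 largest falls were GNG12, CCN2, FTH1P10, CCN1, FAM111A, FTCDNL1, LINC01686, SAMD4A, FTH1, GBP1, L3MBTL2-AS1 and IGFBP7. GNG12 encodes a gamma subunit of heterotrimeric G proteins. It was at 101.3, 29.2 and 28.7 with shCHD4#1 and at 631, 867 and 859 with shCHD4#2, against 23.7 to 123 with shScramble (median 42.9). The shCHD4#1 libraries lay within the control range and the shCHD4#2 libraries lay far above it, and the hairpins differed by -4.11 (SE 0.38, n = 3 pairs, limma adjusted p = 6.49e-05). CCN2 and CCN1 encode secreted matricellular proteins and are textbook targets of the YAP and TAZ coactivators with TEAD factors. CCN2 was at 88.9, 70.1 and 59.3 with shCHD4#1 and at 543, 1130 and 1597 with shCHD4#2, against 195 to 451 with shScramble (median 297). CCN1 was at 170, 156 and 213 with shCHD4#1 and at 877, 2129 and 2418 with shCHD4#2, against 205 to 667 with shScramble (median 567). For CCN2 all shCHD4#1 values were below and all shCHD4#2 values above the control range, whereas for CCN1 a single shCHD4#1 library reached into it. The differences were -3.77 for CCN2 (SE 0.34) and -3.21 for CCN1 (SE 0.25), with limma adjusted p of 5.66e-05 and 3.90e-05 (n = 3 pairs).

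GBP1 encodes an interferon-induced GTPase, IGFBP7 a secreted protein that binds insulin-like growth factors, SAMD4A an RNA-binding repressor of translation, and FAM111A a protease that acts in DNA replication. IGFBP7 was at 96.3, 39.9 and 35.6 with shCHD4#1 and at 338, 341 and 356 with shCHD4#2. SAMD4A was at 439, 202 and 176 with shCHD4#1 and at 1571, 1984 and 1899 with shCHD4#2. GBP1 was at 64.0, 9.74 and 12.9 with shCHD4#1 and at 276, 96.7 and 122 with shCHD4#2. The hairpins did not overlap for any of these 3 genes, which their choice by the size of the difference favours. The differences of the 12 falls ranged from -4.11 for GNG12 to -2.72 for IGFBP7. L3MBTL2-AS1 is an antisense gene, and its reads cannot be told apart from those of its partner without a known strand setting.

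The upstream regions of 3 genes of this kind are shown, because CCN2 is known as a target of TEAD factors, GNG12 fell most, and ACTA2, the smooth muscle actin gene, was lower among the repressed targets of EWS-FLI1 described below. They are the 250 bases before the RefSeq start, 5′ to 3′, from the GRCh38.p14 table. Capitals mark GGAATG or its complement CATTCC, the core that TEAD factors recognise, searched on both strands.
CCN2: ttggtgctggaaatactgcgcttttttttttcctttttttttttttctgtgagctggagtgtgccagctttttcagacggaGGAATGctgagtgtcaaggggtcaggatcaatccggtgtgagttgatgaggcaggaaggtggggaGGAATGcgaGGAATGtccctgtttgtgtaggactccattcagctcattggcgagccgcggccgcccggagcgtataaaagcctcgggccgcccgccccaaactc
GNG12: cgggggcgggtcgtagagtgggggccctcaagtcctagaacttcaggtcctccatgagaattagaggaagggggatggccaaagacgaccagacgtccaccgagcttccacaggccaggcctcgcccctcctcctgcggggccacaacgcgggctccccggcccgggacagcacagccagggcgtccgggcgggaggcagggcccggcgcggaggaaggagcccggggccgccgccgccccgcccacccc
ACTA2: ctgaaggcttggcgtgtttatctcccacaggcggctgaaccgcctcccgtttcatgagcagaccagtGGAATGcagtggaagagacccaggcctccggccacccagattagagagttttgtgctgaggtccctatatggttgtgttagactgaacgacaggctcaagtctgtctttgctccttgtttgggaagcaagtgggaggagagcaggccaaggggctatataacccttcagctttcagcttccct
The CCN2 region (chr6:131951373-131951622, minus strand) holds 3 matches, which begin 169, 104 and 95 bases before the start, and the ACTA2 region (chr10:88952774-88953023, minus strand, the start of 2 with more matches) holds 1. The GNG12 region (chr1:67833468-67833717, minus strand) holds 0. Among all 35116 promoters of the table, 11.9% hold at least 1 match in this window and 0.0826% hold 3 or more. RefSeq entries were found for 8 of the 12 falls and 9 of the 12 rises. Matches were in CCN2, FAM111A and SAMD4A, thus in 3 of the 8 falls and 0 of the 9 rises. These genes have 11 and 15 promoters, and a gene counted if any of its promoters matched. The 11.9% is a share of single promoters, so the measures are unlike. The genes and the motif were chosen after the values were seen, and a match is a stretch of letters, not a measured site.

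The 12 largest rises were NLRP4, DGKG, ELMO1, MIR1-1HG, LINC02476, RIPOR3, LINC00698, ALOX12P2, SLC6A19, MAP7D2, PAK3 and ZNF208. NLRP4 encodes a receptor-like protein of the NLR family (chr19:55836578-55881854, plus strand). It was at 110, 286 and 166 with shCHD4#1 and at 9.51, 5.42 and 8.42 with shCHD4#2, against 1.09 to 12.4 with shScramble (median 4.46). The shCHD4#1 libraries stood far above all others and the shCHD4#2 libraries lay within the control range, with a difference of 4.35 (SE 0.57, n = 3 pairs, limma adjusted p = 2.86e-04). RIPOR3 was at 1472, 1419 and 1183 with shCHD4#1 and at 215, 48.8 and 82.1 with shCHD4#2, a difference of 3.81 (SE 0.33, limma adjusted p = 5.34e-05). ZNF208, a zinc finger protein gene, was at 484, 747 and 495 with shCHD4#1 and at 90.3, 45.2 and 36.9 with shCHD4#2, against 12.2 to 30.4 with shScramble. All 6 hairpin libraries were above the control for ZNF208, by 4.77 with shCHD4#1 and by 1.39 with shCHD4#2 on the log2 scale.

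SLC6A19 encodes a transporter of neutral amino acids, PAK3 a kinase that acts downstream of Rac and Cdc42, ELMO1 a partner of DOCK proteins in Rac activation, and DGKG a diacylglycerol kinase. MIR1-1HG is the host transcript of the muscle microRNAs miR-1-1 and miR-133a-2. MIR1-1HG was at 160, 617 and 416 with shCHD4#1 and at 32.3, 14.5 and 17.9 with shCHD4#2. It is annotated as an antisense gene, so the limit of an unknown strand setting given for L3MBTL2-AS1 applies to its reads too. SLC6A19 was at 111, 148 and 146 with shCHD4#1 and at 12.4, 5.42 and 17.9 with shCHD4#2. MAP7D2, a microtubule-associated protein gene, was at 615, 926 and 781 with shCHD4#1 and at 141, 30.7 and 68.4 with shCHD4#2, against 376 to 630 with shScramble (median 492). All shCHD4#2 values of MAP7D2 lay below the control range, and 2 of the shCHD4#1 values lay above it. The hairpins overlapped for 1 of the 24 leading genes, LINC00698, which was at 179, 105 and 35.6 with shCHD4#1 and at 53.2, 1.81 and 1.05 with shCHD4#2. The choice of these genes by the size and sign of their differences favours separation, and the share over all genes is not given here.

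**Figure D3:**
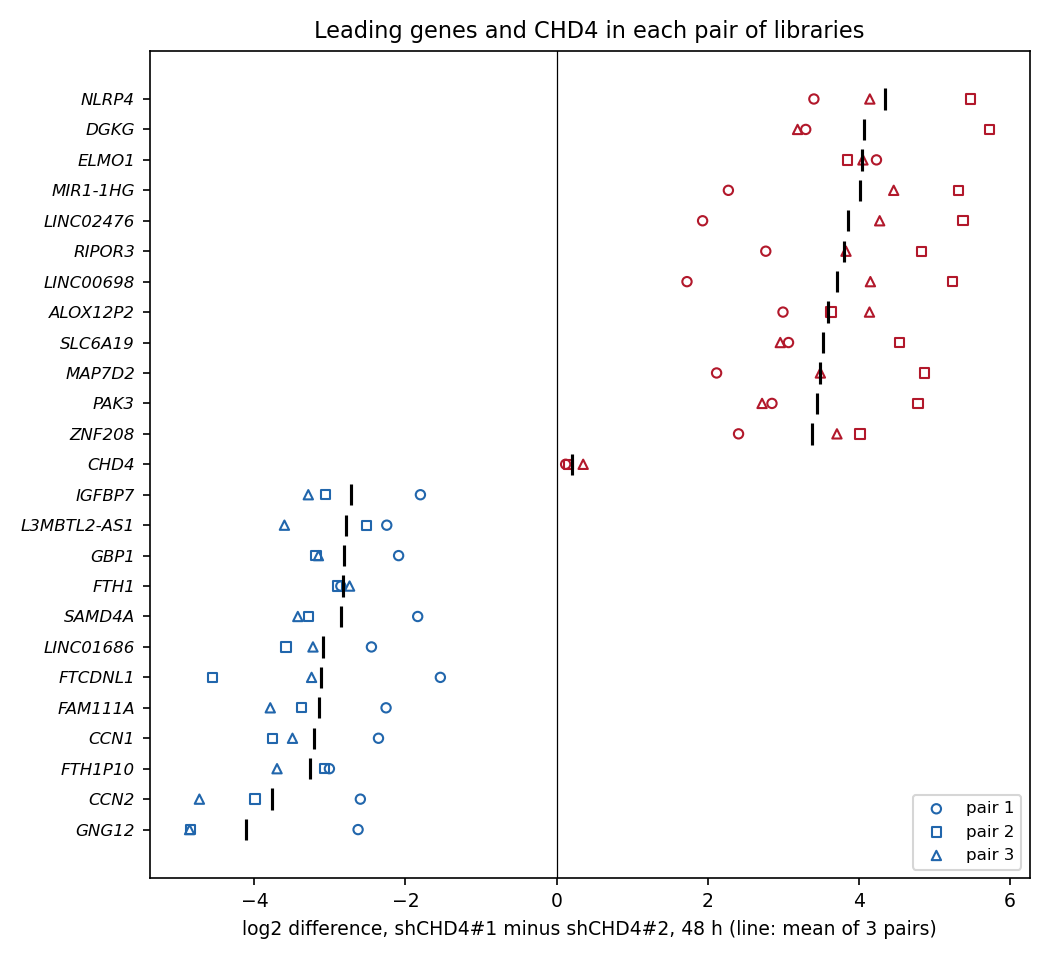
Difference between the hairpins at 48 h (x axis, log2, shCHD4#1 minus shCHD4#2) in each pair of libraries for the 12 largest rises, the 12 largest falls and CHD4 (y axis); symbols are pairs and lines are means. Every symbol of a gene lies on 1 side of 0, as the rule for choosing the rises and falls required. Pair 1 is nearest to 0 for 19 of the 24 leading genes.

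Set against shScramble, the leading genes split by hairpin. Over all genes tested, limma called 12.9% higher and 15.5% lower with shCHD4#1, and 17.5% higher and 20.3% lower with shCHD4#2. Of the 12 largest rises, 11 were higher with shCHD4#1 than with shScramble, all but MAP7D2. With shCHD4#2, ZNF208 alone was higher, DGKG, SLC6A19, MAP7D2 and PAK3 were lower, and 7 were not called. Of the 12 largest falls, 10 were higher with shCHD4#2 than with shScramble, all but FTH1 and FTH1P10. With shCHD4#1, CCN2, FTH1P10, CCN1, FTCDNL1, FTH1 and IGFBP7 were lower and the other 6 were not called. Both comparisons share the control libraries, and the genes were chosen by the difference between the hairpins, so these counts describe the chosen genes only.

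Among targets of EWS-FLI1, the activated ones tended to be higher and the repressed ones lower with shCHD4#1 than with shCHD4#2. Of 43 activated targets tested, 25 were higher, 2 were lower and the median difference was 0.39, beside a median of -0.0012 and shares of 28.7% and 28.6% over all genes. CCND1, the cyclin that drives entry into S phase, was at 6187, 7115 and 7187 with shCHD4#1 and at 1616, 897 and 1271 with shCHD4#2, against 6329 to 14570 with shScramble (median 12962). In shScramble, CCND1 was at 6329 and 7352 in replicates 1 and 2 and at 12962 to 14570 in replicates 3 to 5. The shCHD4#2 libraries lay well below all others, and CCND1 differed by 2.47 (SE 0.16, n = 3 pairs, limma adjusted p = 2.26e-05). BCL11B, a zinc finger transcription factor, differed by 0.80 and LOXHD1 by 1.92. NR0B1, a nuclear receptor chosen after its values were seen, averaged 1528 with shCHD4#1 and 540 with shCHD4#2. The activated targets that were lower with shCHD4#1 were CAV1 (-0.49) and JAK1 (-0.37). FLI1, whose reads include the fusion transcript, was at 3673, 3037 and 3704 with shCHD4#1 and at 3343, 2634 and 2945 with shCHD4#2, a difference of 0.22 (limma adjusted p = 0.0132).

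Of 29 repressed targets of EWS-FLI1 tested, 4 were higher, 15 were lower and the median difference was -0.58. Over all genes 28.7% were higher and 28.6% lower. TPM1, which encodes a tropomyosin, was at 1018, 901 and 939 with shCHD4#1 and at 2527, 2489 and 3310 with shCHD4#2, against 1719 to 1958 with shScramble (median 1876). The shCHD4#1 values lay below and the shCHD4#2 values above the control range, and the hairpins differed by -1.53 (SE 0.10, limma adjusted p = 2.24e-05). ZYX, which encodes the focal adhesion protein zyxin, differed by -1.45 and ACTA2 by -2.50. ACTA2 varied strongly with replicate number, with levels of 3524, 374 and 587 in shCHD4#1 libraries and of 12244, 2692 and 4221 in shCHD4#2 libraries, and it kept its sign in each pair. Its call was lost in the fit of the 6 libraries without pairs (adjusted p = 0.0537). At 24 h the median of the repressed targets was 0.01, with 6 higher and 6 lower. That of the activated targets was 0.08, with 8 higher and 3 lower. Fewer genes were called at that time, 2797 higher and 2867 lower of all 21025, or 26.9% in either direction.

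The genes of cholesterol synthesis and uptake, most of which answer to the transcription factor SREBP2, had the largest median of the 25 gene lists. Of the 5 marker lists, the epithelial (1.16), endothelial (1.06) and fibroblast (0.79) ones had larger medians, over 5, 3 and 9 tested members. Over all genes 28.7% were higher and 28.6% lower. Of 28 cholesterol genes tested, 21 were higher with shCHD4#1, 3 were lower and the median difference was 0.77. It was 0.35 in pair 1, 1.00 in pair 2 and 0.95 in pair 3. SREBF2, which encodes SREBP2 itself, was at 5912, 8457 and 7346 with shCHD4#1 and at 3524, 3177 and 2893 with shCHD4#2, against 7307 to 9518 with shScramble (median 8091). The shCHD4#2 libraries lay below all others, and SREBF2 differed by 1.17 (SE 0.12, n = 3 pairs, limma adjusted p = 9.90e-05). HSD17B7, an enzyme of sterol synthesis, differed by 0.98. The lower members were PMVK, MYLIP and TM7SF2. At 24 h 3 members were higher, 2 were lower and the median was 0.16, beside 26.9% of all genes called in either direction.

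Among genes of cytosolic ribosomal proteins and of the nuclear-encoded respiratory chain, most of those called were lower with shCHD4#1. Over all genes 28.7% were higher and 28.6% lower. Of 48 cytosolic ribosomal protein genes, 42 were lower with shCHD4#1, 2 were higher and the median difference was -0.34. It lay between -0.39 and -0.29 in the 3 pairs. Without the pairing 24 were called lower and 1 higher, and leaving out single libraries in that fit gave 11 to 26 lower. RPL5, a protein of the large subunit, was at 16384, 16627 and 17954 with shCHD4#1 and at 31704, 32431 and 39850 with shCHD4#2, against 26216 to 35832 with shScramble (median 34084). Its shCHD4#1 libraries lay far below all others, with a difference of -1.02 (SE 0.06, limma adjusted p = 1.59e-05). RPL14 differed by -0.53, and RPLP1 (0.89) and RPLP2 (0.41) were the higher members. Ribosomal protein genes took 2.70 to 2.94% of reads with shCHD4#1 and 3.41 to 3.81% with shCHD4#2. Of 38 nuclear-encoded genes of the respiratory chain, 22 were lower, 2 were higher and the median was -0.23, with 8 lower and 1 higher without the pairing. NDUFB10 of complex I differed by -1.02, ATP5F1C of ATP synthase by -0.52 and CYC1 of complex III by -0.44, and the call of CYC1 was lost without the pairing (adjusted p = 0.0869).

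Of 20 immediate early and AP-1 genes tested, 2 were higher, 11 were lower and the median difference was -0.57. Over all genes 28.7% were higher and 28.6% lower. JUN, the AP-1 subunit, was at 1070, 1774 and 1547 with shCHD4#1 and at 2468, 3233 and 3460 with shCHD4#2, a difference of -1.08 (SE 0.10, limma adjusted p = 6.57e-05). FOSL2 differed by -1.89, and ATF3 was 4.01-fold lower. TRIB3, a pseudokinase induced by ATF4, was at 842, 755 and 658 with shCHD4#1 and at 3143, 4637 and 4072 with shCHD4#2, against 807 to 1326 with shScramble (median 944). The shCHD4#2 libraries lay far above all others, with a difference of -2.38 (SE 0.13, limma adjusted p = 1.34e-05). DDIT3, the CHOP transcription factor, differed by -1.50. The list of ATF4 and unfolded protein response genes as a whole was mixed, with 9 of 30 higher, 12 lower and a median of -0.02 (4 higher and 7 lower without the pairing). The members that were higher included the endoplasmic reticulum chaperone genes HSP90B1, PDIA4, SDF2L1 and MANF, chosen after their values were seen.

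Of 13 genes of the RNA interference machinery, 8 were higher with shCHD4#1, 2 were lower and the median difference was 0.27. DICER1, the enzyme that cuts hairpins, was at 15380, 15472 and 14674 with shCHD4#1 and at 8260, 6909 and 7404 with shCHD4#2, against 7331 to 12673 with shScramble (median 11956). In shScramble, DICER1 was at 7331 and 7416 in replicates 1 and 2 and at 11956 to 12673 in replicates 3 to 5. The shCHD4#1 libraries lay above all others, and DICER1 differed by 1.02 (SE 0.07, n = 3 pairs, limma adjusted p = 2.10e-05). AGO2, the slicing Argonaute, differed by 0.59 and TNRC6A, a partner of Argonautes, by 0.55. The lower members were XPO5, the exporter of hairpin precursors (-0.46), and AGO3 (-0.26). Of 26 genes of the interferon and double-stranded RNA response, 7 were higher, 6 were lower and the median was 0.18, with 4 higher and 4 lower without the pairing. The paired counts are near the shares of 28.7% higher and 28.6% lower over all genes. IFI44L differed by 1.63 and IFI44 by 0.88, while EIF2AK2, the kinase PKR, differed by -0.62. Of 14 antigen presentation genes, 5 were higher and 8 lower (2 and 7 without the pairing). The class I genes HLA-B (1.02) and HLA-C (1.06) were higher with shCHD4#1, and the peptide transporter gene TAP2 was lower (-1.26). The HLA genes are near-identical in parts and their reads may be shared, and the call of HLA-B was lost without the pairing (adjusted p = 0.0944).

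Within the NuRD complex, CHD4 was 1 of 4 members of 15 that were higher with shCHD4#1. Another 8 were lower and the median difference was -0.16 (2 higher and 4 lower without the pairing). Over all genes 28.7% were higher and 28.6% lower, and the count of higher members is near that share. RBBP4, a histone-binding subunit, was at 13850, 12792 and 14528 with shCHD4#1 and at 9006, 6381 and 8661 with shCHD4#2, against 13225 to 17866 with shScramble. It differed by 0.79, GATAD2A by 0.40 and CDK2AP1 by -0.54. CHD5, a paralogue of CHD4 chosen after its values were seen, was at 456, 136 and 371 with shCHD4#1 and at 1175, 1473 and 1434 with shCHD4#2, against 210 to 607 with shScramble. Its shCHD4#2 libraries lay above all others, and it differed by -2.25 (SE 0.30, limma adjusted p = 3.20e-04).

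**Figure D4:**
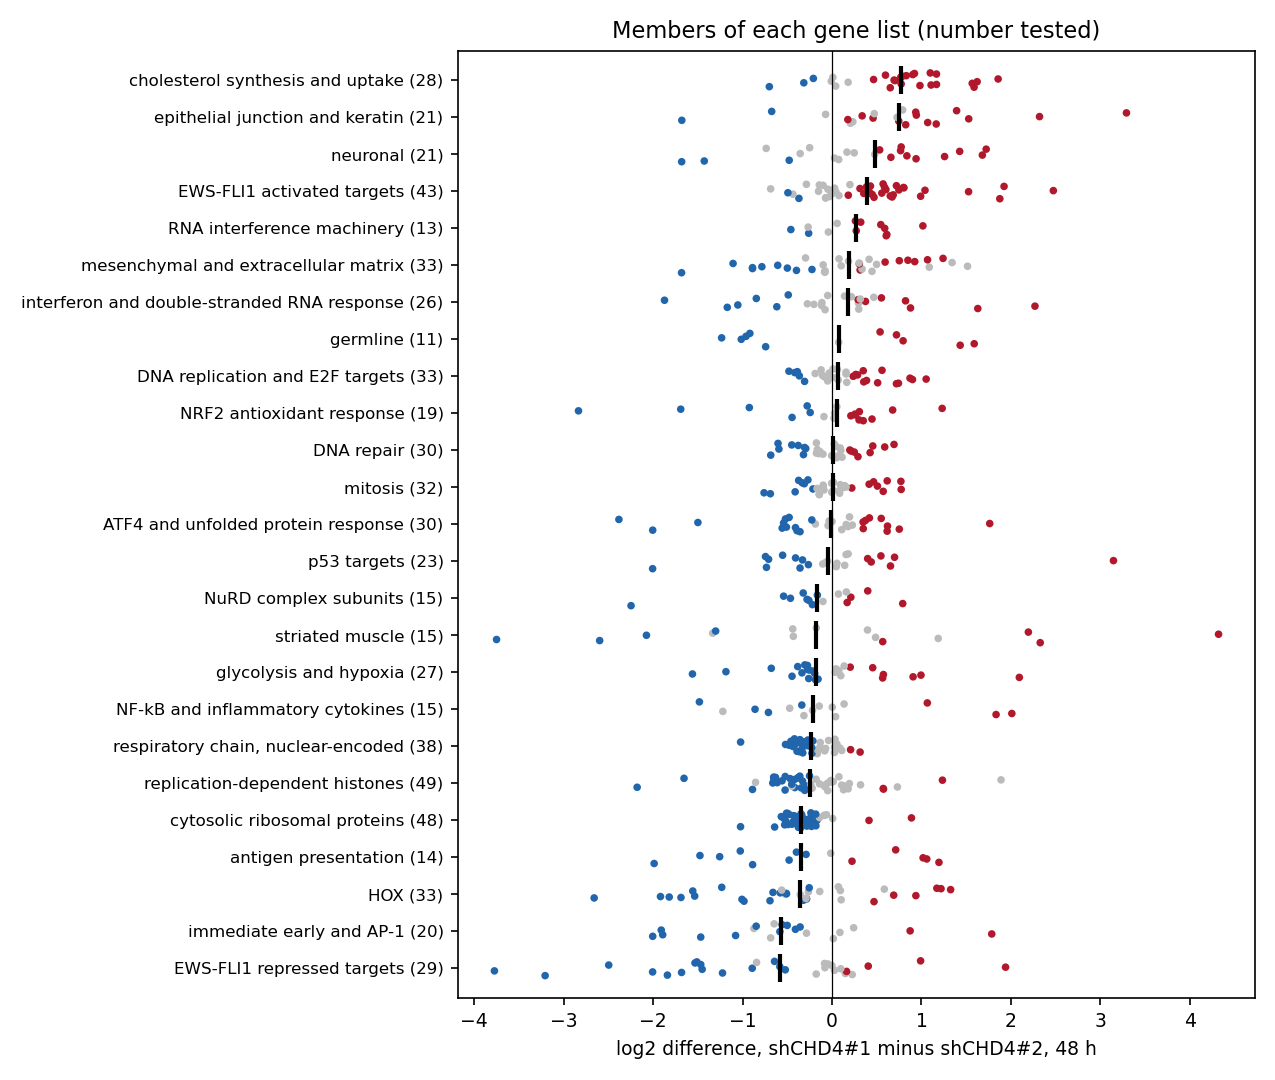
Difference between the hairpins at 48 h (x axis, log2, shCHD4#1 minus shCHD4#2) of every tested member of 25 gene lists (y axis, number tested in brackets); red points are higher, blue points are lower and grey points are not called, and black bars are medians. Medians run from 0.77 for cholesterol synthesis and uptake to -0.58 for EWS-FLI1 repressed targets.

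Developmental gene lists were divided, beside 28.7% higher and 28.6% lower over all genes. Of 33 HOX genes tested, 6 were higher with shCHD4#1, 17 were lower and the median difference was -0.35. HOXD8 was at 460, 498 and 560 with shCHD4#1 and at 860, 1029 and 1179 with shCHD4#2, a difference of -1.01, whereas HOXB3 differed by 1.33 and HOXB6 by 1.17. Of 21 genes of epithelial junctions and keratins, 13 were higher, 2 were lower and the median was 0.75. KRT8, a keratin of simple epithelia, was at 585, 1866 and 2670 with shCHD4#1 and at 263, 212 and 416 with shCHD4#2, against 421 to 1940 with shScramble. JUP, the junction protein plakoglobin, differed by 0.94 and OCLN, the tight junction protein occludin, by -1.68. Of 21 neuronal genes, 10 were higher, 3 were lower and the median was 0.48. The migration gene DCX differed by 1.68 and the neuronal tubulin gene TUBB3 by 0.77.

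In the list of striated muscle genes 4 of 15 were higher, 4 were lower and the median difference was -0.18. Over all genes 28.7% were higher and 28.6% lower, and the counts of this list and of the mesenchymal list are near these shares. TNNT3, a troponin, was at 21.6, 54.5 and 54.3 with shCHD4#1 and at 0, 1.81 and 2.11 with shCHD4#2. TTN, the giant sarcomere protein titin, was at 13.3, 2.92 and 1.98 with shCHD4#1 and at 57.0, 117 and 57.9 with shCHD4#2. These members thus went in opposite directions at low levels. Of 33 mesenchymal and matrix genes 8 were higher and 9 were lower (5 and 6 without the pairing), with COL4A2 at 0.92 and COL4A1 at 0.59 and VIM, the intermediate filament vimentin, at -1.11. The call of COL4A1 was lost without the pairing (adjusted p = 0.0692). Of 11 germline genes 5 were higher and 5 were lower (2 and 3 without the pairing), with MAGEC2 at 1.59, TEX15 at 0.79 and TEX14 at -0.96. TEX14 lost its call without the pairing (adjusted p = 0.0728).

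The lists of mitosis, DNA replication, DNA repair and p53 targets had medians near that of all genes. For mitosis and DNA repair the counts were also near the shares of 28.7% higher and 28.6% lower over all genes. For mitosis 8 of 32 genes were higher and 8 lower (7 and 5 without the pairing), with CENPE at 0.77, TOP2A at 0.77 and CENPF at 0.57. For DNA replication and E2F targets 13 of 33 were higher and 5 lower, with POLA1 at 1.05, MCM7 at 0.90 and ORC1 at 0.74. For DNA repair 8 of 30 were higher and 8 lower (4 and 6 without the pairing), with BRIP1 at 0.69, BLM at 0.59 and XRCC1 at -0.60. For p53 targets 6 of 23 were higher and 9 lower. TP53INP1, a p53 target that acts in cell death and autophagy, was at 1712, 2024 and 2042 with shCHD4#1 and at 215, 229 and 205 with shCHD4#2, against 394 to 622 with shScramble (median 445). The shCHD4#1 libraries lay above and the shCHD4#2 libraries below the control range, and TP53INP1 differed by 3.15 (SE 0.14, n = 3 pairs, limma adjusted p = 4.88e-06). MDM2, the ligase that degrades p53, differed by 0.70, and AEN by -0.74.

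The remaining lists had members called in both directions, beside 28.7% higher and 28.6% lower over all genes. Of 49 replication-dependent histone genes 3 were higher and 23 lower, with a median of -0.25 (3 and 10 without the pairing). H2BC3 differed by -2.18, H2BC14 by -1.65 and H2BC8 by -0.66, and these near-identical genes may share reads. Of 27 genes of glycolysis and hypoxia 7 were higher and 15 lower (5 and 7 without the pairing), with BNIP3L at 0.99, PFKFB4 at 2.09 and PFKM at -0.68. Of 15 NF-kB and cytokine genes 3 were higher and 4 lower, with CXCR4 at 2.01, NFKB1 at -0.71 and RELB at -1.48. Of 19 NRF2 targets 9 were higher and 6 lower (4 and 4 without the pairing), with TXNRD1 at 0.68, SRXN1 at -0.92 and FTH1, given above, at -2.83.

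The summed level of the 10 Ewing sarcoma markers was 64933 to 69724 with shCHD4#1 and 44684 to 53031 with shCHD4#2, against 73034 to 97186 with shScramble. Of the 10, 8 were higher with shCHD4#1, beside 28.7% higher and 28.6% lower over all genes. The epithelial markers summed to 5704 to 9777 with shCHD4#1 and 4091 to 6046 with shCHD4#2, with 4 of 5 tested higher. The fibroblast markers summed to 8908 to 11336 with shCHD4#1 and 11718 to 12623 with shCHD4#2, with 3 of 9 tested higher and 2 lower. Leukocyte markers summed to 137 to 163 with shCHD4#1 and 171 to 204 with shCHD4#2 (2 of 4 tested higher and 2 lower), and endothelial markers to 1941 to 2780 with shCHD4#1 and 2908 to 3102 with shCHD4#2 (2 of 3 higher and 1 lower). All libraries came from cultures of the line SK-N-MC, so these markers need not mark separate cell types. In bulk RNA, fewer cells expressing a gene and less RNA per cell cannot be told apart. The part of either in these differences was not tested.

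Part of the difference between the hairpins was called at 24 h. At that time 5664 genes were called (26.9% of 21025), 2797 higher and 2867 lower with shCHD4#1, and 88.6% of them were also called at 48 h with the same sign. Of the genes called at 48 h, 41.7% were also called at 24 h with the same sign and 92.8% had the same sign whether called or not, and 16 genes were called at both times with opposite signs. Over genes the differences at 48 and 24 h had a Pearson r of 0.784, given as a description, since genes are not independent. The median size was 0.40 at 48 h and 0.23 at 24 h. All 24 leading genes had the same sign at 24 h, and 19 were called. Their differences were larger at 48 h, which the choice of genes by that time favours, and the test of the change between the times called none of them. SLC6A19 (0.61 at 24 h, limma adjusted p = 0.190) and IGFBP7 (-0.49, limma adjusted p = 0.242) were among those not called. For TP53INP1 the difference was 2.95 at 24 h and 3.15 at 48 h.

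**Figure D5:**
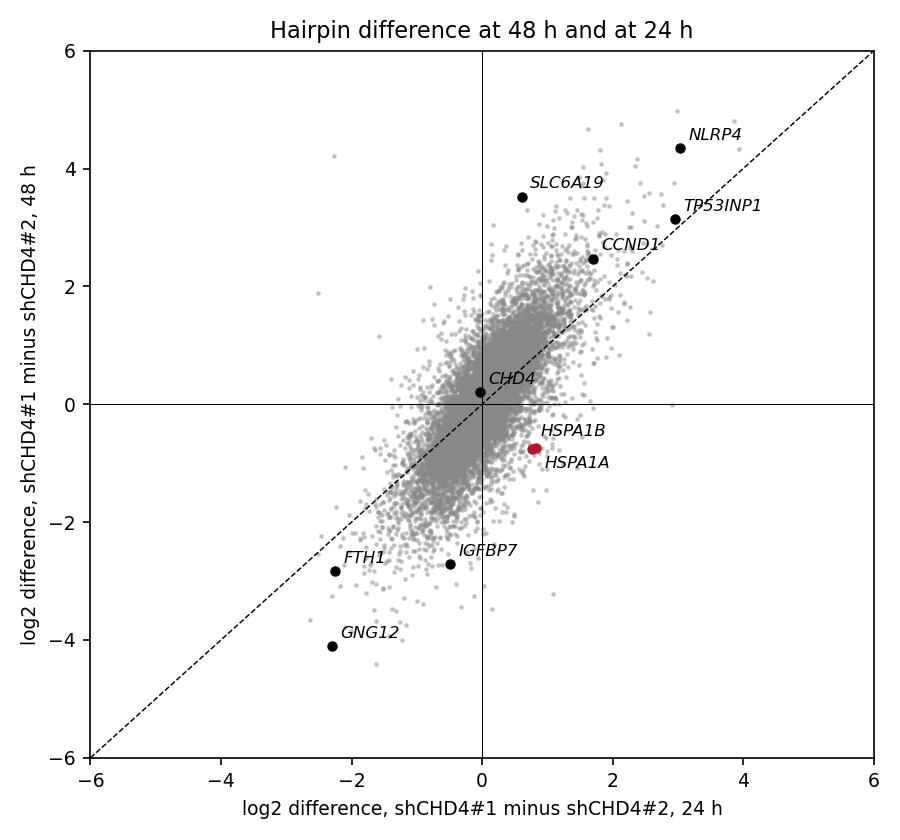
Difference between the hairpins (log2, shCHD4#1 minus shCHD4#2) at 48 h (y axis) against that at 24 h (x axis) for the 21025 genes tested; the dashed line marks equal differences. HSPA1A and HSPA1B lie in the lower right, higher with shCHD4#1 at 24 h and lower at 48 h.

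When the difference at 48 h was tested against that at 24 h, limma called 2 of 21025 genes (0.00951%), and 5366 had an unadjusted p below 0.05. Both were negative, HSPA1A and HSPA1B, which encode the inducible heat shock protein HSP70 and are near-identical, so that they count as 1 signal. HSPA1A was at 4146, 11396 and 11100 with shCHD4#1 and at 6673, 21871 and 16557 with shCHD4#2 at 48 h. At 24 h it was at 3045, 4345 and 11443 with shCHD4#1 and at 1526, 2677 and 6665 with shCHD4#2. The groups overlapped at both times, while within each pair shCHD4#1 was the lower at 48 h and the higher at 24 h. The difference was -0.73 at 48 h and 0.82 at 24 h, and the change of -1.56 had a limma adjusted p of 0.00468. Both calls were lost without the pairing, and edgeR called 58 positive and 31 negative genes. Without replicate 1, limma called 1271 positive and 916 negative genes, so the count of late differences depends on that replicate.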

How the data were processed

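RNA from SK-N-MC cultures with doxycycline-inducible hairpins was sequenced from stranded total RNA libraries with paired ends on a HiSeq2000, per the labels' protocols, which call the samples biological replicates. Per the submitters' processing notes, reads were handled on GRCh38 with HISAT2 (2.1.0), featureCounts (1.6.0), SAMtools (1.7), FastQC (0.11.7) and DESeq2 (1.34.0). The sources used here do not give their settings, the strand setting of counting included. The signal that the authors deposited is each gene's read count divided by 1 size factor per library. In the table for 48 h, 100% of the non-zero values checked in the 6 libraries came back as whole reads within a tolerance of 0.02. The check left out the values of abundant genes. The 35488 genes of the table have at least 10 reads over all 28 libraries.

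Since these values are no longer counts, genes were tested by limma-trend 3.58.1 in R 4.3.3 on log2(value + 1), which understates the change of low genes. It used the 21025 genes whose mean over the 28 libraries was at least 10. The fit held the 12 hairpin libraries of 24 and 48 h, with the mean over the 3 pairs of each time and a block per time and replicate number. Pairing comes from the replicate numbers in the titles. At 48 h the deviations of same-numbered libraries from their group means correlated with r of 0.407, 0.24 and 0.594, each above every correlation with another number, and at 24 h with r of 0.412, 0.311 and 0.708. P values of this fit measure the spread of the paired differences between these cultures, with 1 estimate shared by both times. Each hairpin was set against shScramble in a fit of the 14 libraries of 48 h without pairs. All tests were two-sided and adjusted by Benjamini-Hochberg. Libraries of 1 hairpin differed by more than sampling noise, with a chi-square of 29.0 to 50.3 per gene.

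Named genes are CHD4, the 12 largest rises and the 12 largest falls among called genes whose 3 pairs had 1 sign, with a mean of at least 100 in the higher group and a gene symbol, and from each list the called members of smallest adjusted p, 3 at most. Some genes that this rule names are not reported here. The 25 gene lists and 5 marker lists come from textbook knowledge. Members and lists were chosen with earlier results of these data known. Lists are described by counts and medians, with no set test. Positions are those of GENCODE release 29. Alternatives included edgeR 4.0.16 and DESeq2 1.42.0 on the recovered reads, other pseudocounts, filters and scalings, fits without pairs and fits without single replicates. The fitting code was tested on simulated data.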

Additional observations from a re-analysis of the deposited data

Results flagged for a closer look

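HSPA1A and HSPA1B differed between the times. The hairpin difference at 48 h minus that at 24 h was -1.56 for HSPA1A and -1.52 for HSPA1B, by limma's test of the difference itself, and the near-identical genes may share reads. Among the 5 shScramble libraries of 48 h, replicate 1 stood apart from the others for LINC02476 with a level of 171 and for GNG12 with a level of 123. In a screen of 25 genes, 2 such libraries were found, and chance alone sets about 1 in 20 groups apart. Both genes lay outside the range of the controls with the hairpin that separated them, LINC02476 with shCHD4#1 at 488 to 933 and GNG12 with shCHD4#2 at 631 to 867.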

How the results depend on the processing

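The named differences between the hairpins kept their sign under every alternative run, and 1884 of 1929 values of the 97 genes that the rule takes beside CHD4 also kept their side of the threshold. The 45 that did not came from 10 genes, 39 of them from leaving out a library. In all 21 settings, 4189 genes were called with 1 sign. The counts depended on the pairing. Without the replicate block the 14 libraries gave 4046 higher and 3917 lower genes, and the 6 libraries alone gave 3491 higher and 3453 lower. Leaving out a pair gave 4506 to 6051 higher and 4304 to 6172 lower genes, and leaving out a single library in the fit without pairs gave 2933 to 4354 higher and 2852 to 4294 lower genes, fewest without shCHD4#2 replicate 2 (higher) and shCHD4#2 replicate 3 (lower). By DESeq2, 5193 were higher and 5251 lower. CHD4 kept a difference of 0.21 but not its call without the replicate block (adjusted p = 0.164 with 14 libraries and 0.114 with 6) or with 6 paired libraries (adjusted p = 0.0513), and leaving out a pair or a library gave 0.14 to 0.26 (adjusted p of 0.012 to 0.409). For the change between the times, edgeR called 58 positive and 31 negative genes, the fit without the replicate block called 0 and 0, and leaving out a replicate number gave 0 to 1271 positive and 0 to 916 negative genes. Of 1000 counts of list members, 708 stayed within 1.5 times the value given and 292 did not. Against shScramble, replicates 1 and 2 alone turned 5 uncalled values round, NLRP4 (-0.057) and LINC00698 (-0.71) with shCHD4#2 and GNG12 (0.0050), LINC01686 (-0.28) and L3MBTL2-AS1 (0.017) with shCHD4#1. The cause of these changes was not tested. Median centring and quantile normalisation moved the median of all genes to 0.00 and -0.02.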

Other observations

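The 13 protein-coding genes of the mitochondrial genome, a set chosen after its values were seen, were higher with shCHD4#1 at 48 h in 12 cases, beside 28.7% of all genes. Their median difference was 0.55, against 0.02 at 24 h and against the lower nuclear-encoded genes of the respiratory chain. MT-ATP6, a subunit of ATP synthase, was at 20960, 19590 and 24651 with shCHD4#1 and at 16024, 10402 and 17200 with shCHD4#2, a difference of 0.61 (limma adjusted p = 4.44e-04), while MT-ATP8 was the member not called (0.41, limma adjusted p = 0.101). Mitochondrial mRNA took 1.06 to 1.32% of reads with shCHD4#1 and 0.727 to 0.998% with shCHD4#2. The change between the times was not called for any of them, with a lowest limma adjusted p of 0.0704. By contrast, chromosome medians of nuclear protein-coding genes stayed between -0.08 on chromosome 3 and 0.08 on chromosome X, chromosome Y not analysed here.

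By gene type, sense intronic transcripts, which lie within introns of other genes, had 79 of 263 higher with shCHD4#1, 16 lower and a median of 0.37, beside 28.7% higher and 28.6% lower over all genes. Small nucleolar RNA genes had 61 of 255 higher, 12 lower and a median of 0.17. Processed pseudogenes had 81 of 686 higher, 158 lower and a median of -0.16, and antisense genes had 307 of 1590 higher, 442 lower and a median of -0.15.

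Silencing of EWS-FLI1 with shFLI1 at 48 h uses none of the 6 hairpin libraries, so its response can be set beside the difference between the CHD4 hairpins. Of 3683 genes at least 2-fold higher with shFLI1 than with shScramble, 23.5% were higher and 29.7% lower with shCHD4#1 than with shCHD4#2, with a median difference of -0.10. Of 2886 genes at least 2-fold lower with shFLI1, 37.0% were higher and 24.5% lower, with a median of 0.13. Over all genes the correlation was weak (Pearson r of -0.11 and Spearman rho of -0.103 over 21025 genes, as a description). Single genes, chosen after their values were seen, went either way. GNG12 averaged 53.1 with shCHD4#1, 786 with shCHD4#2, 684 with shFLI1 and 52.8 with shScramble, and CCND1 averaged 6830 with shCHD4#1, 1261 with shCHD4#2, 177 with shFLI1 and 11042 with shScramble. TP53INP1 averaged 1926 with shCHD4#1, 216 with shCHD4#2, 4471 with shFLI1 and 472 with shScramble, and PAK3 averaged 109 with shCHD4#1, 11.2 with shCHD4#2, 161 with shFLI1 and 28.6 with shScramble.

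Within the HOXA and HOXB clusters there were called genes of both directions, and the examples were chosen after their values were seen. In the HOXA cluster HOXA2 (-1.69), HOXA3 (-1.82), HOXA5 (-1.92) and HOXA6 (-1.53) were lower with shCHD4#1, whereas HOXA9 (0.94) and HOXA10 (0.69) were higher. In the HOXB cluster HOXB3, HOXB5 and HOXB6 were higher (1.33, 1.22 and 1.17) and HOXB9 was lower (-1.23). HOXA9 was at 216, 207 and 213 with shCHD4#1 and at 125, 97.6 and 111 with shCHD4#2.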
